A study of Mus musculus with 2 samples.

Results

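Transcripts of 44 genes of the lysosome were followed in plasmacytoid dendritic cells (pDCs), immune cells that release large amounts of type I interferon, with and without the transcription factor Runx2. The list holds soluble hydrolases of proteins, sugars, sulfate esters and lipids, their helper proteins, lysosomal membrane proteins, and genes of sorting and control. All 44 of 44 have a probe set of their own, out of 19938 genes that do. Members were taken by gene symbol, and a gene with several probe sets was read from the one brightest on average.

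The study compared pDCs of bone marrow from fetal liver chimeras, mice whose blood system was rebuilt from donor fetal liver cells, 2 months after reconstitution. Donor cells were Runx2-/- in one group and wild type in the other, and both groups were sorted in the same way by flow cytometry as BST2+ B220+ cells lacking CD11b. Each group is 1 array (Affymetrix Mouse Gene 1.0 ST, 250 ng of total RNA), so no difference below has a standard error, a p-value or a replicate check. The labels name neither the strains, the age of the mice, the number of mice per sample nor the host cells that remained in the chimeras.

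Lysosomes are acidic organelles whose hydrolases take macromolecules apart in sequence, so that the loss of a hydrolase lets its substrate accumulate as a storage disease. Most soluble hydrolases receive a mannose 6-phosphate tag in the Golgi and are carried to the lysosome by receptors for that tag, while others reach it through sortilin. TFEB and its relatives TFE3 and MITF switch on many of these genes through an E-box with the core CACGTG. In pDCs the endolysosome is also where TLR7 and TLR9 meet nucleic acids, and where cathepsins and asparagine endopeptidase cut these receptors into their active form.

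The E-box core was therefore looked for in promoter windows from RefSeq (build GRCm38.p6), each running from 250 bases before to 50 bases after an annotated start. Of the 44 genes, 40 had at least 1 window and together they had 47. Ctsb, Ctsh, Asah1 and Npc1 had none. The letters CACGTG, which read the same on both strands, were present in 11 of the 47 windows (23.4%), beside 7.15% of all 32851 windows. They belonged to 11 genes: Arsa, Ctsa, Ctsd, Ctsl, Gaa, Gla, Glb1, Lamp1, Lgmn, Mcoln1 and Naglu. The longer palindrome TCACGTGA, which contains the core, was present in 4 windows (8.51%), beside 0.974% of all windows. The windows of these 4 genes are shown because they hold the palindrome, and that of Gaa because it had the largest difference between the arrays among the 11 genes. Capitals mark the palindrome, or in Gaa the core.
Ctsa, chr2:164833749-164833778, plus strand: tgagcaaactgTCACGTGAtgcagatgctc
Ctsd, chr7:142387908-142387937, minus strand: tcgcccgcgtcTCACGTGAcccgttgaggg
Gla, chrX:134601215-134601244, minus strand: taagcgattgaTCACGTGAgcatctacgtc
Mcoln1, chr8:3500462-3500491, plus strand: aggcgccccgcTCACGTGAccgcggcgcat
Gaa, chr11:119267811-119267840, plus strand: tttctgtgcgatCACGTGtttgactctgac

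The first base of the palindrome lay 13 bases before the start in Ctsa, 99 in Ctsd, 228 in Gla and 46 in Mcoln1. Ctsa and Gla each held 2 copies of the palindrome, and the Lamp1 window held 4 copies of the core. Runx factors bind TGTGGT or TGCGGT, and both were searched on both strands. TGTGGT was present in 7 of the 47 windows (14.9%), beside 16.8% of all windows, and TGCGGT in 0 of 47, beside 6.45%. A match describes the letters only and is not evidence of binding.

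Most lysosomal genes, like most named genes, were at nearly the same level with and without Runx2. Of the 44 genes, 29 (65.9%) had log2 differences within 0.2 of zero and 39 (88.6%) within 0.5, where a difference is the Runx2-deficient minus the wild-type value. A brightness filter kept the 10337 named genes that were no dimmer than the median named gene on 1 or both arrays. Of those, 55.0% and 90.0% lay as close, and of all 19938 named genes 66.0% and 94.2%. Closeness therefore does not set the list apart. The median difference of the 44 was -0.05, beside -0.03 over all 19938 named genes. Of the 44, 20 were higher and 24 lower in the Runx2-deficient sample, beside 8491 higher and 11299 lower over all named genes. With each array centred on its own median, 24 of the 44 were higher and 20 lower, beside 11609 and 8329 over all named genes. The median of the 44 then turned to 0.03, so no direction is given for the list. Of the 44, 43 passed the brightness filter. The exception was Cd63, a tetraspanin of late endosomes, at 6.81 and 6.69 on the log2 scale of intensity.

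**Figure D1:**
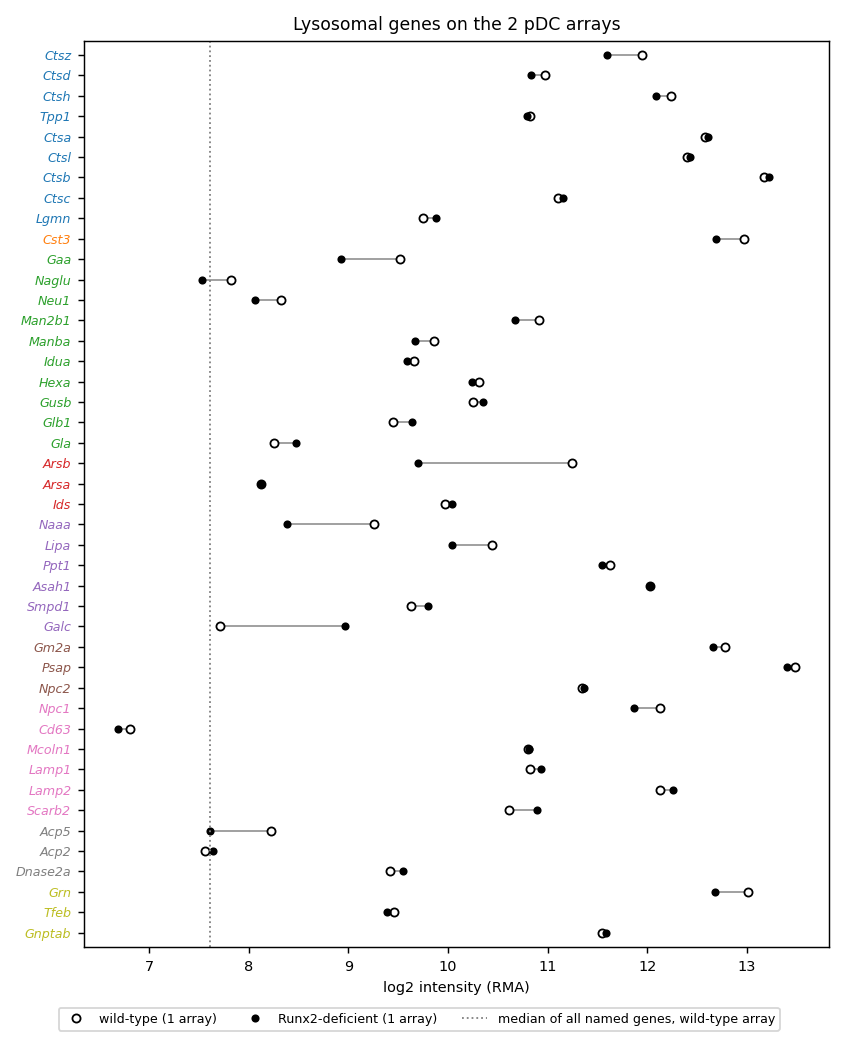
Log2 intensity of each of the 44 genes on the wild-type array (open circles) and the Runx2-deficient array (filled circles), grouped by class, with no error bars since each group is 1 array. The circles nearly overlap for most genes, while Arsb, Galc and Naaa show the widest gaps, and the dotted line is the median of all named genes on the wild-type array, 7.61.

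Of the members, 2 were at least 2-fold apart, 1 in each direction. That is 4.55% of 44, beside 1.96% of named genes past the brightness filter (0.793% higher and 1.17% lower), and it rests on 2 genes. The members were chosen with earlier results of these data known, so this share does not describe lysosomal genes at large. Arsb, the sulfatase that removes sulfate from dermatan and chondroitin sulfate, had an intensity of 2426 on the wild-type array and 830 on the Runx2-deficient array, 2.92-fold lower. Galc, the enzyme that removes galactose from galactosylceramide, a lipid best known from myelin, had 209 on the wild-type array and 502 on the Runx2-deficient array, 2.40-fold higher. Among named genes past the filter, 56 were as far down as Arsb (0.542%) and 34 as far up as Galc (0.329%).

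Arsb was the only member with a second probe set, and that one also gave a lower value in the Runx2-deficient sample, at 9.72 against 10.74 on the wild-type array in log2 units (2.02-fold lower). The wild-type level of Galc was 7.71 in log2 units, close to the filter level of that array (7.61), so its fold rests on a dim denominator. With 50 units added to every intensity its log2 difference was 1.09 in place of 1.26. The sequences before the starts of these genes are shown because they are the 2 members past 2-fold. Neither window holds the E-box core or either of the Runx motifs.
Arsb, chr13:93771429-93771678, plus strand: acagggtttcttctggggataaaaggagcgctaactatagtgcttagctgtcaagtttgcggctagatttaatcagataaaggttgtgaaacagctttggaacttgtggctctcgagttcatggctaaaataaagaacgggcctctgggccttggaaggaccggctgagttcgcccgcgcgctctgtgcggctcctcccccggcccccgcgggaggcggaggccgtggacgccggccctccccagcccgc
Galc, chr12:98259460-98259709, minus strand: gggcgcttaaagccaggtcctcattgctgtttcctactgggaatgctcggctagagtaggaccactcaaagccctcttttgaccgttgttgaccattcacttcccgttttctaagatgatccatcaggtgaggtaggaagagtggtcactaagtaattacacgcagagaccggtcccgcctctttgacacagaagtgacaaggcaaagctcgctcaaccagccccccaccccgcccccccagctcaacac

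At a threshold of 1.5-fold, 5 members (11.4%) were apart, 1 higher and 4 lower, beside 6.88% of named genes past the brightness filter (3.02% higher and 3.86% lower). This share, too, is of members chosen with earlier results of these data known. The further 3 members were all lower in the Runx2-deficient sample. Naaa, the amidase that breaks down palmitoylethanolamide and related lipid amides, had an intensity of 610 on the wild-type array and 334 on the Runx2-deficient array (1.83-fold). Acp5, the tartrate-resistant acid phosphatase known from osteoclasts and macrophages, had 299 and 196 (1.53-fold). Gaa, the acid alpha-glucosidase that breaks down glycogen, had 731 and 486, which is just past the threshold. With 50 units added to every intensity, or with each array centred on its median, neither Acp5 nor Gaa reached it, and with the trend on intensity removed Acp5 did not.

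**Figure D2:**
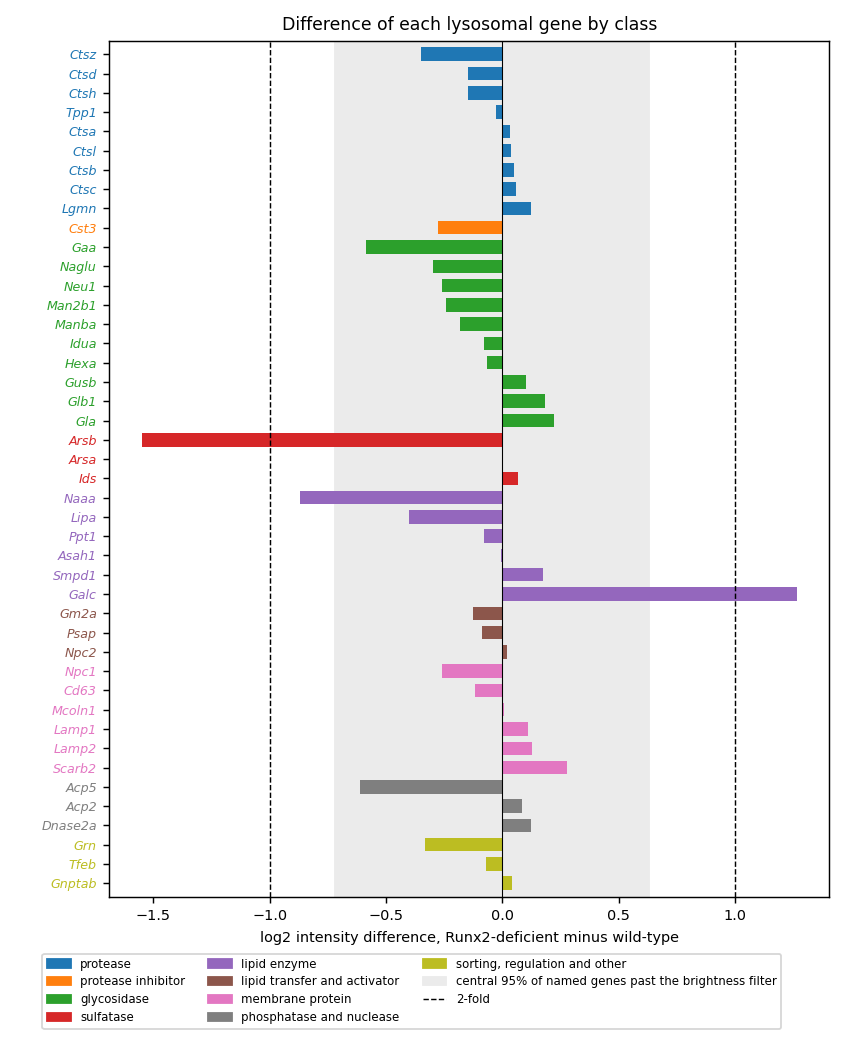
Log2 difference of each of the 44 genes (bars, Runx2-deficient minus wild-type, coloured by class, 1 array per group). Arsb at -1.55 and Galc at 1.26 pass the dashed 2-fold lines, Naaa at -0.87 lies between them and the grey band, which holds the central 95% of named genes past the brightness filter (-0.72 to 0.63), and the other members lie inside the band.

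The arrays also differed in markers of other blood cells and in Y-linked genes. All 14 granulocyte markers were lower in the Runx2-deficient sample, 13 of them at least 2-fold, with summed intensities of 18712 on the wild-type array and 2636 on the Runx2-deficient array. Erythroid markers (8 of 8 measured) and platelet markers (6 of 6) were lower as well, with medians of -1.05 and -0.61. Of 14 monocyte and macrophage markers, 11 were higher and 3 lower, with summed intensities of 3797 and 3390 and a median of 0.29. Lyz2, the brightest of the 14 on the wild-type array, had 1440 there and 480 on the Runx2-deficient array. It was the 1 marker of this list at least 2-fold apart. Of 10 conventional dendritic cell markers, 5 were higher and 5 lower, with a median of -0.02, and Itgax, which encodes CD11c, was 5.39-fold lower. Of 10 B cell markers, 2 were higher and 8 lower, with a median of -0.20. The brightness filter was passed by 13 of the granulocyte, 3 of the erythroid and 6 of the platelet markers. It was also passed by 7 of the monocyte and macrophage, 8 of the conventional dendritic cell and 4 of the B cell markers. The filter asks for 1 array only, so a marker can pass through the brighter array alone. The granulocyte marker S100a8 did so, with log2 levels of 9.82 in wild-type and 6.51 in Runx2-deficient cells. Passing therefore says nothing about a difference between the arrays. In bulk samples fewer cells of a type and less RNA per cell cannot be told apart. The part of these cells in the lower values of Arsb, Naaa, Acp5 and Gaa was not tested. For the labelled cell type, 14 of 15 pDC genes had a probe set, and all 14 passed the brightness filter. Markers of other blood cells passed it too, so passing does not check the label. The 14 pDC genes had summed intensities of 78890 on the wild-type array and 74028 on the Runx2-deficient array. Of the 14, 5 were higher and 9 lower in the Runx2-deficient sample, with a median of -0.18. Siglech, a surface receptor of pDCs, had 11436 on the wild-type array and 12028 on the Runx2-deficient array, while Lag3, Spib and Irf7 had log2 differences of -0.74, -0.69 and -0.68, past 1.5-fold. Runx2 itself was not analysed here, so the genotype labels were not checked on the targeted gene. The Y-linked Eif2s3y, Uty and Kdm5d were 21.7-fold, 7.69-fold and 4.81-fold lower in the Runx2-deficient sample. Their intensities were 687, 357 and 383 on the wild-type array and 31.6, 46.4 and 79.7 on the Runx2-deficient array. With 1 array per group, the arrays differ in Y-linked genes and in genotype at once. The parts of the 2 in any difference given here cannot be told apart. The 3 X-linked members, Gla, Ids and Lamp2, differed by 0.22, 0.07 and 0.13.

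The proteases were the class with the narrowest range among those with 5 or more members, and 0 of 9 were 1.5-fold apart, which at a background of 6.88% does not set them apart. Their differences ran from -0.35 to 0.12, with a median of 0.03. Within 0.2 of no difference lay 8 of 9, beside 55.0% of named genes past the filter and 66.0% of all named genes. Ctsl and Ctsb, the cysteine proteases cathepsin L and B, had intensities of 5383 and 9241 on the wild-type array and 5525 and 9567 on the Runx2-deficient array. Lgmn, asparagine endopeptidase, had 862 and 939, and Ctsc, which activates the serine proteases of granules, had 2194 and 2281. These 4 genes were thus between 1.03-fold and 1.09-fold higher in the Runx2-deficient sample.

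Ctsa, a carboxypeptidase, had an intensity of 6104 on the wild-type array and 6245 on the Runx2-deficient array, and Tpp1, a tripeptidyl peptidase, had 1813 and 1777. Ctsd, the aspartic protease cathepsin D, had 2016 and 1818, and Ctsh, an aminopeptidase, had 4819 and 4347, both 1.11-fold lower. Ctsz, a carboxypeptidase of the papain family, was the protease with the largest difference, at 3942 and 3089 (1.28-fold lower). Cst3, the secreted inhibitor of cysteine cathepsins known as cystatin C, was at 7996 and 6608 (1.21-fold lower).

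Of the 10 glycosidases, 7 were lower in the Runx2-deficient sample, with a median of -0.13, and 6 were lower with each array centred on its median (median -0.05). Over all 19938 named genes, 11299 were lower, and 8329 with that centring. Man2b1 and Manba, the alpha- and beta-mannosidases that trim the sugar chains of glycoproteins, had intensities of 1932 and 926 on the wild-type array and 1634 and 816 on the Runx2-deficient array. Naglu, which acts on heparan sulfate, had 227 and 184, and Neu1, the sialidase, had 321 and 268. Each of these 4 was between 1.13-fold and 1.23-fold lower, all less than Gaa.

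Idua and Hexa, which act on heparan and dermatan sulfate and on the ganglioside GM2, had log2 levels of 9.66 and 10.31 on the wild-type array and 9.58 and 10.24 on the Runx2-deficient array. Gusb, beta-glucuronidase, differed by 0.10, Glb1, beta-galactosidase, by 0.18 and Gla, the alpha-galactosidase of globotriaosylceramide, by 0.22. In the lysosome CTSA protects NEU1 and GLB1 in a shared complex, and the transcripts of these 3 proteins differed by 0.03, -0.26 and 0.18.

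The other 2 sulfatases among the 44 genes were nearly equal on both arrays. Arsa, which removes sulfate from sulfatide, had an intensity of 278 on the wild-type array and 279 on the Runx2-deficient array, and Ids, which removes it from iduronate residues, had 1005 and 1053. Of the sulfatases in the wider list of lysosomal genes, Sgsh and Arsg differed by -0.20 and -0.21, Galns by 0.01 and Arsk by 0.16, and Arsg was below the brightness filter. Along the route of heparan and dermatan sulfate, Sgsh and Hgsnat were added from that list. Of its 7 genes, 1 (14.3%) was 2-fold apart, beside 1.96% of named genes past the brightness filter. That gene was Arsb itself, already given above, so the count adds nothing to it. The other 6 ran from -0.30 (Naglu) to 0.13 (Hgsnat).

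The lipid enzymes had the widest range of any class, from -0.87 for Naaa to 1.26 for Galc. Asah1, acid ceramidase, was at 4171 on the wild-type array and 4157 on the Runx2-deficient array, and Ppt1, which removes palmitate from proteins, was at 3160 and 2988. Smpd1, acid sphingomyelinase, had 789 and 891, while Lipa, the acid lipase of cholesteryl esters and triglycerides, had 1388 and 1051 (1.32-fold lower). The 9 sphingolipid genes were Hexa, Gm2a, Glb1, Gla, Arsa, Galc, Smpd1, Asah1 and Psap. Galc, already given above, was the 1 at least 1.5-fold apart (11.1%), beside 6.88% of named genes past the brightness filter. Of the 9, 7 (77.8%) lay within 0.2 of no difference, beside 55.0% of those named genes and 66.0% of all named genes. The helper proteins were close to equal. Psap, the precursor of the saposins that present sphingolipids to their hydrolases, differed by -0.09, Gm2a, the activator for GM2 breakdown, by -0.12, and Npc2, which binds cholesterol, by 0.02.

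Among the 6 membrane proteins, 0 were 1.5-fold apart, again beside a background of 6.88%, and the differences ran from -0.26 to 0.28. Lamp1 and Lamp2, the most abundant glycoproteins of the lysosomal membrane, had intensities of 1811 and 4480 on the wild-type array and 1955 and 4893 on the Runx2-deficient array. Mcoln1, a calcium channel of the lysosome, had 1784 and 1792. Scarb2, a sorting receptor of the lysosomal membrane, was 1.21-fold higher, at 1569 and 1902, and Npc1, which exports cholesterol, was lower, at 4466 and 3733. Cd63 differed by -0.12, at levels below the median of all named genes on both arrays.

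Of the remaining enzymes, Acp2, lysosomal acid phosphatase, was at 7.56 in log2 units on the wild-type array and 7.64 on the Runx2-deficient array, and Dnase2a, the acid DNase that degrades DNA in phagocytes, was at 9.42 and 9.54. The regulator Tfeb and the sorting gene Gnptab were nearly equal as well. Tfeb had an intensity of 704 on the wild-type array and 670 on the Runx2-deficient array, and Gnptab, the enzyme that starts the mannose 6-phosphate tag, had 2980 and 3067. Grn, the precursor of the lysosomal granulins, was 1.26-fold lower, at 8229 and 6531.

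Genes with the E-box core in a promoter window had differences between -0.59 and 0.22, with a median of 0.03 over 11 genes, 8 of them higher in the Runx2-deficient sample. The 29 genes with a window and no core ran from -1.55 to 1.26, with a median of -0.08, 11 of them higher. These counts moved to 7 and 11 with the trend on intensity removed, and to 8 and 14 with each array centred on its median. Over all 19938 named genes, 8491 were higher, 9980 with the trend removed and 11609 with centring. Of the members past 1.5-fold, Gaa has the core. Arsb, Galc, Naaa and Acp5 belong to the larger group without it, which holds 29 of the 40 genes with a window. No difference between both groups of genes was tested.

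**Figure D3:**
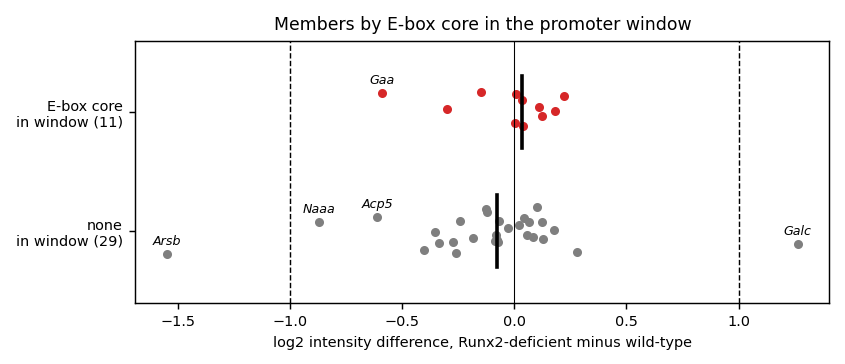
Log2 difference (Runx2-deficient minus wild-type) of the 11 genes with the E-box core in a promoter window and the 29 genes with a window but no core; each point is a gene, the vertical bar is the group's median (0.03 and -0.08), and dashed lines mark 2-fold. Gaa is the outermost gene with the core, and Arsb, Naaa, Acp5 and Galc are the outermost without it.

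The further lists, of lysosomal genes and of protease inhibitors, had 103 genes measured of 108 listed and were also mostly close to equal. Of the 8 protease inhibitors measured, 4 passed the brightness filter. Of all 103 genes, 90 passed the brightness filter, and the median was -0.03. Within 0.2 of no difference lay 61 (59.2%), beside 55.0% of named genes past the filter and 66.0% of all named genes. At least 2-fold apart were 3 (2.91%), beside 1.96% of named genes past the filter and 1.08% of all named genes. Ctse, cathepsin E, an aspartic protease of endosomes, had an intensity of 4240 on the wild-type array and 1359 on the Runx2-deficient array (3.12-fold lower), a larger difference than that of its relative Ctsd. Sort1, sortilin, a receptor that sorts prosaposin and other cargo without the mannose 6-phosphate tag, had 1960 and 848 (2.31-fold lower). Of the 12 sorting genes in its list, 4 were higher and 8 lower, with a median of -0.15. Over all 19938 named genes, 8491 were higher and 11299 lower. Mcoln3, a channel related to Mcoln1, was 2.50-fold higher, with log2 levels of 7.24, under the filter level, in wild-type and 8.56 in Runx2-deficient cells.

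Laptm4b, a membrane protein of late endosomes, was the fourth of these genes past 1.5-fold, at 1079 and 692 (1.56-fold lower). Those 4 are 3.88% of the 103, beside 6.88% of named genes past the brightness filter and 3.95% of all named genes. The share of the 44 genes was 11.4%, and the lists were chosen with earlier results of these data known. Of 17 subunits of the V-ATPase, the proton pump that acidifies the lysosome, 0 were 1.5-fold apart, beside the same 6.88%, and the median was 0.00. The relatives of Tfeb had differences of -0.14 for Tfe3, -0.19 for Mitf and -0.37 for Tfec, and Tfec was below the brightness filter. Ctss, the cathepsin that trims the MHC class II invariant chain, was at 2929 and 2341 (1.25-fold lower), and Cd68, a lysosomal membrane protein of myeloid cells, at 5626 and 4252 (1.32-fold lower). Unc93b1, the chaperone of endosomal TLRs, had 4478 and 4620.

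**Figure D4:**
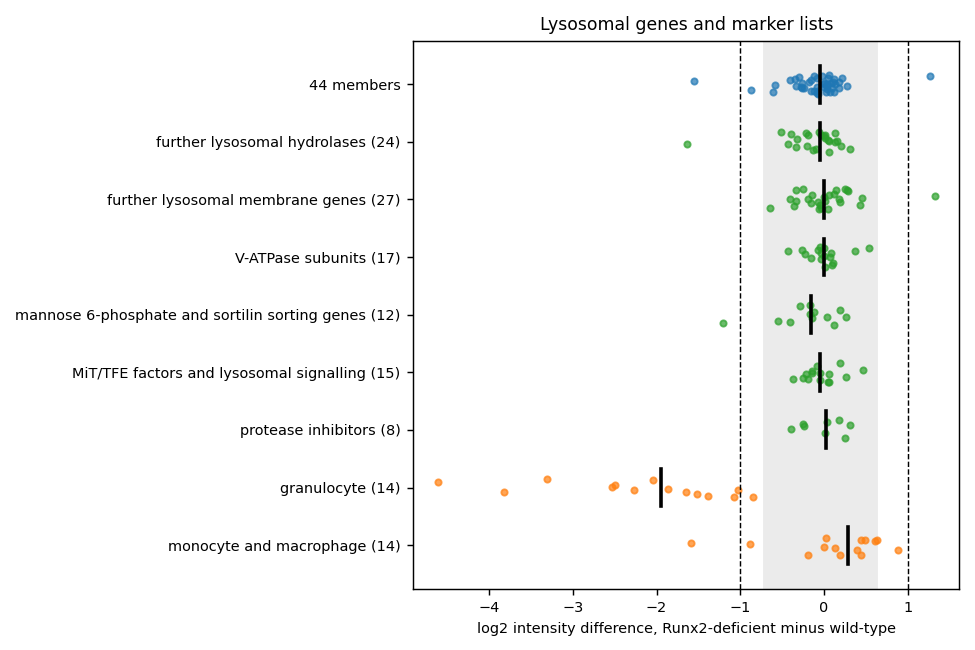
Log2 difference (Runx2-deficient minus wild-type) of the 44 genes (blue) and of 6 further lists of lysosomal genes and protease inhibitors (green). Granulocyte markers and monocyte and macrophage markers are in orange. Each point is a gene, bars are medians and numbers in brackets are genes measured. The grey band holds the central 95% of named genes past the brightness filter, and dashed lines mark 2-fold. Medians of the blue and green lists lie between -0.15 and 0.02, and that of the granulocyte list at -1.95.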

How the data were processed

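The deposited values are linear intensities, 1 per probe set and array, from 15.3 to 20364. RMA (background correction, equalised probe distributions and probe summary) was applied by the authors, per the submitters' processing notes. Its software is not given in the sources used here, nor which arrays were normalised together. Small intensities are drawn together by RMA, so differences between dim genes can be understated, and no detection call is given. A difference is log2 of the Runx2-deficient intensity minus log2 of the wild-type one. The platform annotation gives 1 symbol to 21789 of 35556 probe sets, several to 1621 and none to 12146; those with 1 symbol were named. The brightness filter was the median named gene, 7.61 (wild-type) or 7.54 (Runx2-deficient), reached on at least 1 array. The number of arrays, 1 per group, limits the precision: thresholds of 2-fold and 1.5-fold are rules of size, not tests.

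Members, gene lists and classes were chosen with earlier results of these data known. Any of the 44 members may be named. Of the further lysosomal genes, the rule names those past 1.5-fold and the brightness filter and relatives or partners of a member. Sgsh, Hgsnat, Unc93b1, Arsg, Arsk, Galns, Tfec and the Y-linked genes were named outside it after values were seen. Hyal1, Slc11a1, Atp6v0c, M6pr and Stfa1 were not analysed here, and some other genes of the lysosome are not reported here. Alternatives were median centring, loess (span 0.3), 50 units added, averaging the probe sets of each gene, a 1.5-fold threshold and the brightness filter. Scripts were tested on simulated data. Python 3.11.15, pandas 2.3.3, numpy 2.4.6 and statsmodels 0.14.6 were used.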

Additional observations from a re-analysis of the deposited data

How the results depend on the processing

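The 2 members past 2-fold, Arsb and Galc, remained past it in the same direction with each array centred on its median, with the loess trend subtracted, with 50 units added to every intensity and with probe sets of a gene averaged. At a 1.5-fold threshold, 4 members in place of 1 were lower in the Runx2-deficient sample, which follows from the threshold itself. The median of the 44 was between -0.05 and 0.03 under these settings and with members past the brightness filter alone, and class medians moved by at most 0.1. Single differences moved by over 0.1 in 3 cases: Arsb was -1.28 with the mean of both probe sets, and with 50 units added Galc was 1.09 and Acp5 -0.51. Centring changed the sign of 4 members and the loess trend that of 2, all close to 0. No paired analysis was possible because each group is 1 array, and for the same reason no array could be left out. The single array per genotype limits every value.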
